A study of Mus musculus with 3 samples.

Results

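The genes described here are 5 components of the renin-angiotensin system, Agt, Ren1, Ace, Agtr1a and Agtr2, in kidney rudiments of mouse embryos that lack Fgfrl1 and of wildtype embryos. They were chosen by name: every non-control probe whose gene name in the array files is one of these 5 was taken, which gave 9 of the 41174 probes and 5 of the 27745 gene names. Agt and Agtr2 have 1 probe each, Agtr1a and Ren1 have 2 each, and Ace has 3.

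In the renin-angiotensin system, the aspartyl protease renin cuts a short peptide from the plasma protein angiotensinogen, and angiotensin-converting enzyme trims that peptide to angiotensin II. Angiotensin II acts through receptors of type 1, which raise vessel tone and aldosterone output, and of type 2, which is best known from foetal tissue. In the developing kidney, renin is made by precursors in the stroma and in the walls of growing arteries, the type 2 receptor is found in mesenchyme around the ureteric bud, and loss of members of the system is known to disturb the papilla, the vessels and the urinary tract.

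Fgfrl1 is a transmembrane receptor related to the receptors for fibroblast growth factors. The Fgfrl1-/- pools came from C57BL/6 Fgfrl1-/- embryos and the wildtype pools from C57BL/6 wt littermates, all at E12.5, with no further allele or agent. Each of the 3 pools per genotype held 6 to 9 rudiments, and each Fgfrl1-/- pool (Cy3, green) was hybridized with 1 wildtype pool (Cy5, red) to a 2-colour Agilent array. The deletion was constitutive, so every cell of the embryo lacked the gene, and the sex of the embryos is not given in the sources used here. The dyes were swapped on 0 arrays, so dye and genotype cannot be told apart. Array 1 lay on slide 1, and arrays 2 and 3 lay on slide 2. Over all probes, the ratios of arrays 2 and 3 correlated with r = 0.71, those of arrays 1 and 2 with r = 0.11 and those of arrays 1 and 3 with r = 0.22. A probe is called detected in a pool where the scanner software marks its signal as well above background. By that mark 57.1% to 80.2% of all probes were detected in an Fgfrl1-/- pool and 60.9% to 65.0% in a wildtype pool. The targeted gene was lower in the Fgfrl1-/- pool on each array, with log2 ratios of -1.21, -1.51 and -1.83 (mean -1.52 ± 0.31 SD, n = 3, adjusted p = 0.0332).

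The probe sequences are shown for the 2 receptor probes detected in all pools and for the renin probes, because it depends on these bases which transcript a signal stands for. Each probe is 60 bases long, and the first 30 are given, except for Ren1 probe 1, which is given whole, with the stop codon of renin in capitals.
Agtr2 probe 1: cttaacacgagtacatctcttacattagag
Agtr1a probe 1: tcctccacatatatgtacatatgtatctct
Ren1 probe 1: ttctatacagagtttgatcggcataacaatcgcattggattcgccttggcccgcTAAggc
Ren1 probe 2: caggctcagtgctgaatggggcgtattcac
Ren2 probe: caagccaagctggcactcttgggggccatt

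On mm8, the build the files use, Ren1 probe 1 lies at chr1:135187628-135187687 on the plus strand and ends 3 bases after the stop codon. Ren1 probe 2 lies upstream at chr1:135181736-135181795. The Ren2 probe, named after the duplicated renin gene that some mouse strains carry, lies at chr1:135187713-135187774 and starts 25 bases beyond the end of Ren1 probe 1. C57BL/6 mice carry a single renin gene, and the files list a Ren2 transcript for Ren1 probe 1 as well as the Ren1 ones. Values of the Ren2 probe are therefore no measurement of a separate gene in these embryos.

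At E12.5, Agtr2, Agtr1a and Ren1 each had a probe that was detected in all pools. By its probe 1, Ace was detected in 3 of 3 wildtype pools and in 2 of 3 Fgfrl1-/- pools, and Agt was at the limit of detection. Of the 9 probes, 3 were detected in all pools, 2 in none and 4 in some. With limma and adjustment over all probes, 0 of the 9 probes passed an adjusted p of 0.05, against 0.687% of the 41174 probes (164 lower and 119 higher in Fgfrl1-/-). Of the 9, 3 were lower on all 3 arrays (both Agtr1a probes and Ace probe 1), where 19.2% of all probes were, and 3 were higher on all 3 (Agt and both Ren1 probes), where 19.0% were. The Agt ratios were 0.00, 0.00 and 0.06 in log2, too near 0 to give a direction. Ratios are given as log2 of Fgfrl1-/- over wildtype, so that a positive value means more signal in the Fgfrl1-/- pool. In RNA from whole rudiments, fewer cells of a type and less RNA per cell cannot be told apart.

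**Figure D1:**
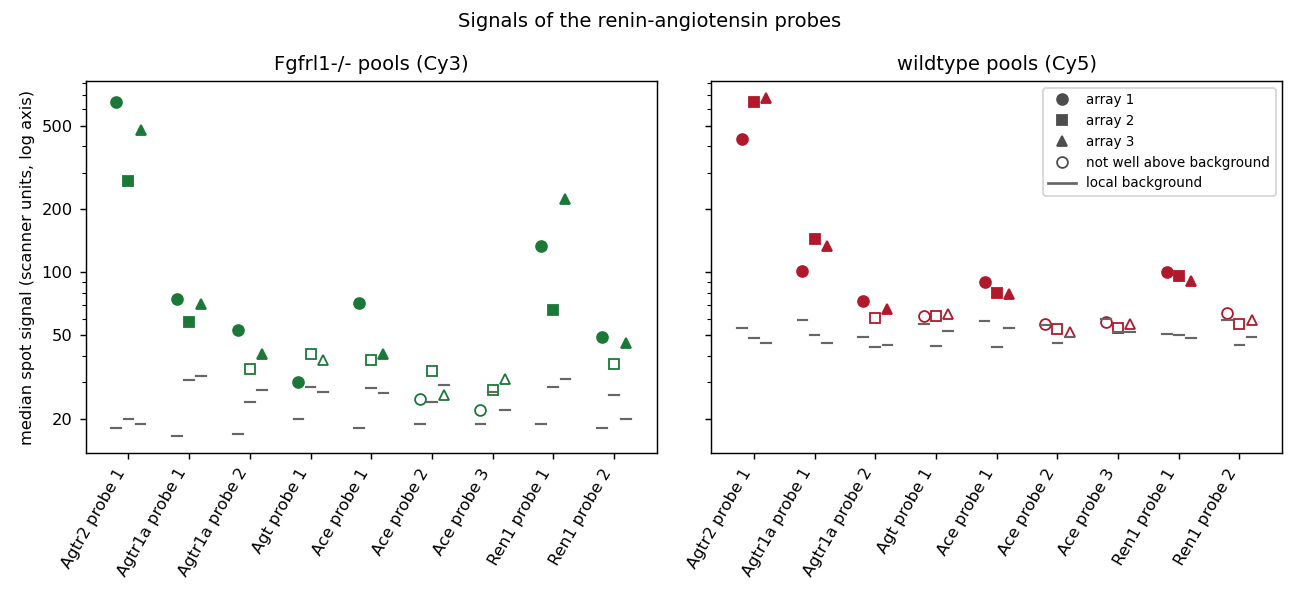
Median signal of each probe of the 5 genes by array, in the Fgfrl1-/- channel (left) and the wildtype channel (right), in scanner units on a log axis. Filled points were detected, that is, well above background, open points were not, and grey bars give the local background; heights of different probes cannot be set against each other. All points of Agtr2, Agtr1a probe 1 and Ren1 probe 1 are filled, and all points of Ace probes 2 and 3 are open.

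Agt encodes angiotensinogen, the substrate of renin, which is made mainly by the liver. Its probe lies at chr8:127442851-127442910 on the minus strand. In the Fgfrl1-/- channel it gave 30, 41 and 38 scanner units on arrays 1, 2 and 3, over local backgrounds of 20, 28.5 and 27. In the wildtype channel it gave 62, 62 and 63, over 57, 44.5 and 52.5. Agt was detected in 1 of 3 Fgfrl1-/- pools (array 1) and in 0 of 3 wildtype pools. The log2 ratios were 0.00, 0.00 and 0.06 (mean 0.023 ± 0.036 SD, n = 3, adjusted p = 0.926). No fold is given for Agt, since most of its signals were not well above background. The liver markers on the array gave a summed normalized signal of 929 to 1121 in the Fgfrl1-/- pools and 833 to 1088 in the wildtype pools, and 3 of the 9 were detected in no pool.

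Ren1 encodes renin, the protease that starts the cascade. It had the largest log2 ratio of the 5 genes, but the size of the ratio rested on array 3. Both probes were positive on all 3 arrays, though probe 2 was near 0 on array 2 (0.02), where neither pool detected it. Ren1 probe 1 gave 134, 66 and 223 scanner units in the Fgfrl1-/- channel, over local backgrounds of 19, 28.5 and 31. The wildtype channel gave 101, 96.5 and 91, over 51, 50.5 and 48.5. The Fgfrl1-/- pool of array 3 stood out, while the wildtype pools were close to each other. The log2 ratios were 0.27, 0.27 and 1.57 (mean 0.70 ± 0.75 SD, n = 3, moderated 95% interval 0.02 to 1.38, adjusted p = 0.299). In the moderated fit the variance of a probe is drawn towards that of all probes. The interval is therefore narrower than the SD of this probe alone would give, and that it leaves out 0 rests on this. The spread of this probe exceeded that of 99.0% of all probes. Without array 3 the mean was 0.27 (adjusted p = 0.703), and without array 2 it was 0.92 (adjusted p = 0.492). In both of these fits 0 of all probes passed. Without array 1, that is, within slide 2, the mean was also 0.92 and passed the test (adjusted p = 0.00653), in a fit in which 18.6% of all probes passed.

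Ren1 probe 2, which lies within the same gene upstream of the first, was detected in the Fgfrl1-/- pools of arrays 1 and 3 and in 0 of 3 wildtype pools. Its log2 ratios were 0.31, 0.02 and 0.39 (mean 0.24 ± 0.20 SD, n = 3, adjusted p = 0.318), and no fold is given because the wildtype side was not measured above background. For array 2, the log2 ratios of the authors gave -0.01 for this probe. The probe beside it, labelled Ren2, followed Ren1 probe 1 on each array, with log2 ratios of 0.25, 0.21 and 1.35 (mean 0.61 ± 0.65 SD, n = 3, adjusted p = 0.304). With the offset of 50, array 3 was thus the highest for all 3 renin probes, but for Ren1 probe 2 array 1 was nearly as high.

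The size of the renin ratios also depended on how the background was handled, since an offset added to both channels pulls the ratio of a dim probe towards 0. With an offset of 0 in place of 50, Ren1 probe 1 gave 0.40, 0.54 and 2.34, and in the scanner software's own ratios it gave 0.81, 0.75 and 2.89 (mean 1.48). Ren1 probe 2 gave 1.56, 0.93 and 1.12 in the scanner software's ratios. Ren1 probe 1 was positive under all 16 alternative settings and passed the test under 1 of them, the one without array 1. Ren1 probe 2 was positive under all 13 settings that kept it as a probe of its own and passed under 0. Many of these settings could not turn the sign, since they kept the ratios or averaged ratios above 0 on every array. Where the ratios were computed anew or came from the authors, the means of Ren1 probe 1 were 0.77 to 1.48.

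**Figure D2:**
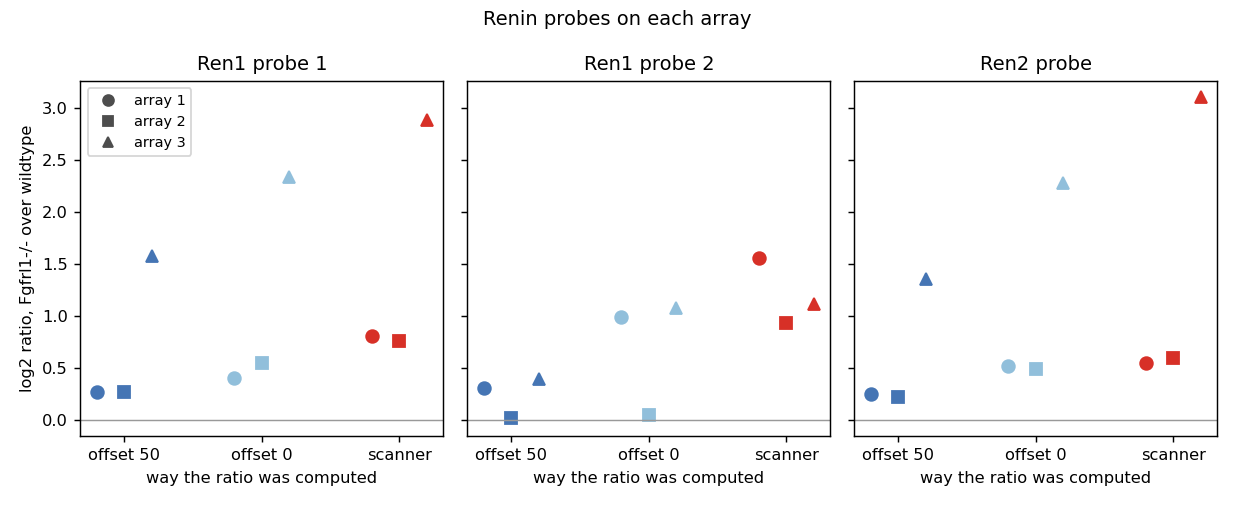
Log2 ratios of Fgfrl1-/- over wildtype for Ren1 probe 1, Ren1 probe 2 and the Ren2 probe on each array, computed with a normexp offset of 50, with an offset of 0 and by the scanner software. All points lie above 0, and array 3 stands apart for Ren1 probe 1 (1.57, 2.34 and 2.89) and the Ren2 probe but not for Ren1 probe 2.

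Several transcripts that do not belong to the system also differed between the arrays, and they are given here after their values were seen. Afp, a protein of foetal liver and yolk sac, had log2 ratios of -0.04, -0.45 and 1.24, with array 3 apart. The median of the 9 liver markers, Afp among them, was 0.05 on array 3. Only 2 of the 9 were detected in all pools, so this median does not show whether the others moved. The other of these 2, Trf, had 0.33, 0.41 and 0.56. Afm, detected in all pools but not on the marker list, had 0.67, 0.88 and 1.26, so that both were highest on array 3. Mpo, the myeloperoxidase of granulocyte precursors, had 0.10, -0.31 and 1.42, with array 3 apart too. The Y-linked genes Ddx3y (-0.43, 0.78 and 1.48), Eif2s3y (-0.30, 0.27 and 1.07) and Jarid1d (-0.22, 0.36 and 0.98) were highest on array 3 too. Unlike Ren1 probe 1, they also rose from array 1 to array 2. Xist, the RNA of the inactive X chromosome, had 1.75, -1.37 and -1.15, so that array 1 stood apart. The Xist and the Y-linked ratios had opposite signs on each array. Whether any of these moved the renin values was not tested. The markers of mural and smooth muscle cells, among which renin cells arise, had a median log2 ratio of -0.07 with 0 of 11 past the test in either direction, and their summed normalized signal was 17948 to 30701 in the Fgfrl1-/- pools and 19401 to 30423 in the wildtype pools. The markers of renal stroma were higher on all 3 arrays for 8 of 10 genes, beside 19.0% of all probes, with 1 past the test (Pdgfra, a receptor for platelet-derived growth factor, mean 1.02), and their summed signal was 99805 to 113730 against 75254 to 80522. The macrophage markers were higher on all 3 arrays for 8 of 8 genes, with 0 past the test and a median log2 ratio of 0.48, and their summed signal was 4856 to 8647 against 3651 to 4587. The markers of cap mesenchyme, the nephron progenitors, were lower on all 3 arrays for 5 of 8 genes, beside 19.2% of all probes, with 2 past the test (Cited1 and Gdnf) and a summed signal of 16437 to 17793 against 21037 to 21743. The part of these cell types in the renin and receptor values was not tested.

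**Figure D3:**
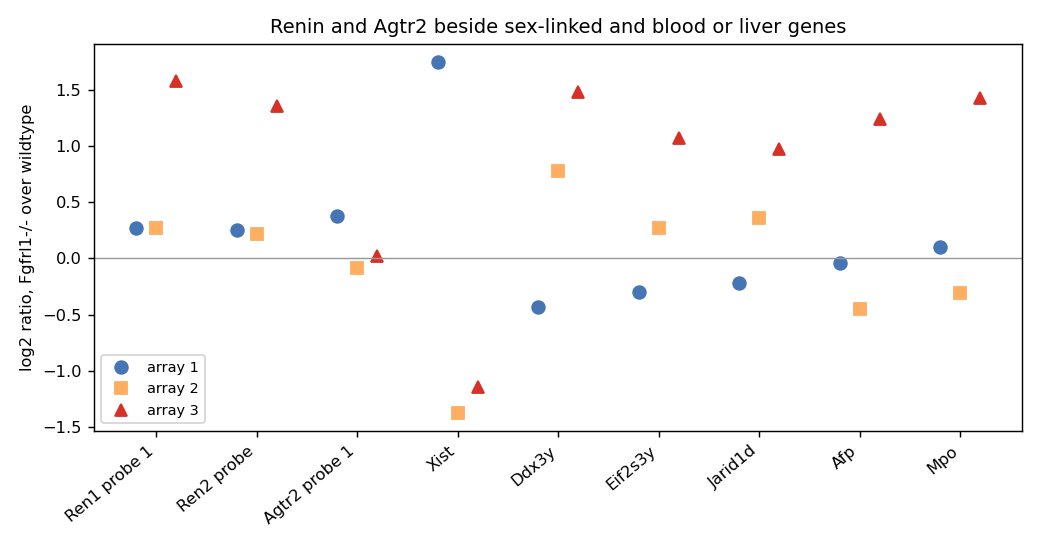
Log2 ratios of Fgfrl1-/- over wildtype on each array for Ren1 probe 1, the Ren2 probe and Agtr2, beside Xist, 3 Y-linked genes, Afp and Mpo. Array 3 is the highest point for the renin probes, the Y-linked genes, Afp and Mpo, whereas array 1 is the highest for Agtr2 and Xist.

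Ace encodes angiotensin-converting enzyme, a peptidase of endothelial and epithelial surfaces. Ace probe 1, at chr11:105805174-105805233, was detected in 2 of 3 Fgfrl1-/- pools (arrays 1 and 3) and in 3 of 3 wildtype pools. Its log2 ratios were -0.05, -0.27 and -0.07 (mean -0.13 ± 0.12 SD, n = 3, adjusted p = 0.520). Ace probe 2, which spans a gap from 105802147 to 105804133 on the same chromosome, had log2 ratios of -0.00, 0.07 and -0.21 (mean -0.05 ± 0.14 SD, n = 3, adjusted p = 0.858). Ace probe 3, at chr11:105806254-105806313, had -0.02, -0.10 and 0.11 (mean -0.0027 ± 0.10 SD, n = 3, adjusted p = 0.993). Probes 2 and 3 were detected in no pool, so they bear on the limit of detection and not on a direction. The endothelial markers, for the cells that carry much of this enzyme, had a median log2 ratio of 0.09 with 0 of 12 past the test.

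Agtr1a encodes the main type 1 receptor of rodents. Its probe 1, at chr13:30390234-30390293, gave 75, 58 and 71 scanner units in the Fgfrl1-/- channel, over local backgrounds of 16.5, 30.5 and 32. The wildtype channel gave 102, 144 and 134, over 59, 50.5 and 46. The log2 ratios were -0.18, -0.34 and -0.35 (mean -0.29 ± 0.10 SD, n = 3, 95% interval -0.48 to -0.10, adjusted p = 0.155). The ratio was below 0 on each array and larger than the spread between arrays, but it did not pass the adjustment over all probes. With an offset of 0 the values were -0.33, -0.66 and -0.59 (mean -0.53). Many of the 16 alternative settings kept the ratios or averaged ratios below 0 on every array, so they could not turn the sign. Where the ratios were computed anew or came from the authors, the means were -0.53 to -0.26. The mean stayed negative under all 16 and passed the test under 1, within slide 2 (mean -0.34, adjusted p = 0.00589). That is the fit in which 18.6% of all probes passed.

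Agtr1a probe 2, at chr13:30389344-30389403, was detected in 2 of 3 pools of each genotype. Its log2 ratios were -0.11, -0.04 and -0.06 (mean -0.07 ± 0.03 SD, n = 3, adjusted p = 0.713). Both probes of the gene were thus below 0 on all 3 arrays, and the ratio of probe 2 was the smaller. The other type 1 receptor gene of rodents, Agtr1b, was detected in no pool.

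Agtr2 encodes the type 2 receptor and lies on the X chromosome, with its probe at chrX:20645397-20645456. It was detected by a wide margin in every pool, and its ratio had no common direction. The Fgfrl1-/- channel gave 652.5, 274 and 479 scanner units over local backgrounds of 18, 20 and 19. The wildtype channel gave 433, 654 and 681 over 54, 48.5 and 46. The log2 ratios after normalization were 0.38, -0.09 and 0.02 (mean 0.10 ± 0.25 SD, n = 3, 95% interval -0.17 to 0.38, adjusted p = 0.732). The first array gave the highest ratio, and without it the mean was -0.03. The order of the arrays was that of Xist, with its ratios of 1.75, -1.37 and -1.15, and whether the share of female embryos in a pool bears on Agtr2 was not tested. The scanner software's ratios for Agtr2 were 0.11, -0.17 and 0.03.

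**Figure D4:**
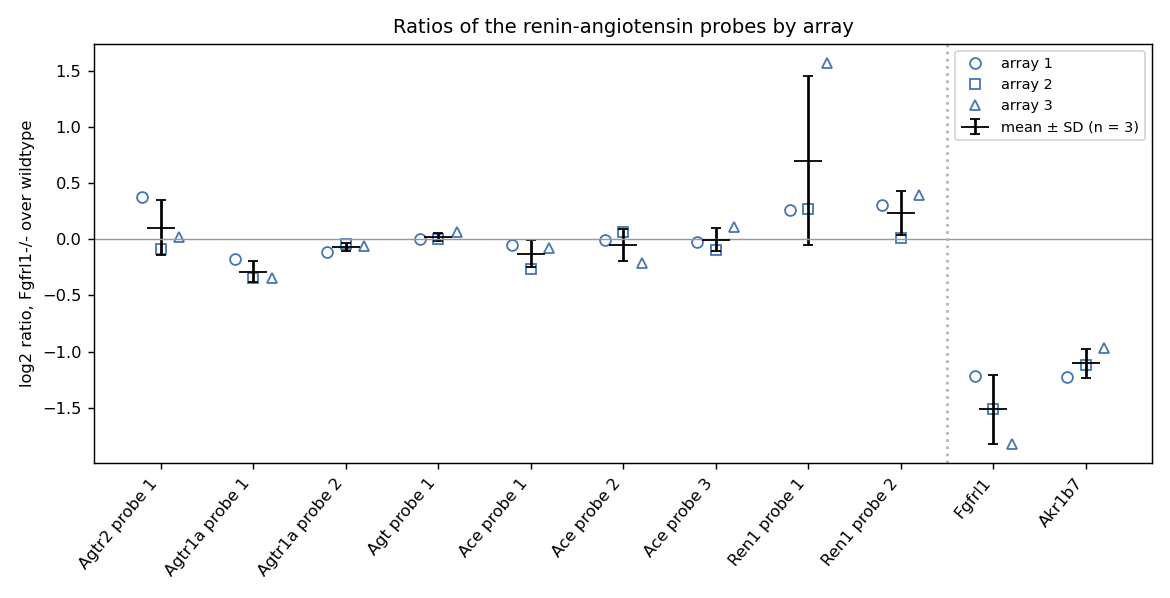
Log2 ratio of Fgfrl1-/- over wildtype for the 9 probes of the 5 genes, with Fgfrl1 and Akr1b7 to the right of the dotted line. Open points are the 3 arrays and bars give the mean ± SD (n = 3); both Agtr1a probes lie below 0, both Ren1 probes lie above 0 and Agtr2 lies on both sides.

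For each gene with a probe detected in all pools, the genes with the closest values were sought over the 3 arrays among 15413 detected genes, by the root mean square difference of their log2 ratios. For Agtr2 these were 5730507C01Rik (0.01), Pik3ca (0.01) and 4732495E13Rik (0.02), and 558 genes lay within 0.1. For Agtr1a they were the transcript ENSMUST00000088301 (0.01), Fgd6 (0.02) and Lypla1 (0.02), with 377 genes within 0.1. For Ren1 they were Ren2 (0.13), Mpo (0.36) and Ppp1r3c (0.38), with 0 genes within 0.1. By this measure many genes lay near the receptors, whereas even the adjacent Ren2 probe was more than 0.1 from Ren1 probe 1. The measure depends on the size of the ratios, and the spread of Ren1 probe 1 exceeded that of 99.0% of all probes. It therefore does not show how common a pattern is, and 3 arrays cannot separate such patterns further.

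The wider pathway was read from a list of 48 genes, of which 47 were on the array: other peptidases of the angiotensins, receptors and their partners, the aldosterone branch, tubular sodium transporters, and genes of renin cells. Of the 47, 35 (74.5%) were detected in all pools and 5 (10.6%) in none, beside 55.4% and 19.3% of all probes. In the limma fit 1 was lower and 0 were higher, against 0.483% lower and 0.342% higher over all gene names with 1 probe each. The median log2 ratio of the list was 0.02, beside 0.00 for all probes. On all 3 arrays 11 genes (23.4%) were positive and 10 (21.3%) negative, near the 19.0% and 19.2% of all probes.

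The 1 gene that fell was Akr1b7, an aldo-keto reductase of the adrenal cortex and of renin cells. Its log2 ratios were -1.23, -1.12 and -0.97 (mean -1.10 ± 0.13 SD, n = 3, adjusted p = 0.0274), and it was detected in all pools. The sign was opposite to that of the Ren1 ratio on each array. Akr1b7 is on the study's own list of reduced genes from these samples, so its direction is no independent evidence. The mean stayed negative under all 16 alternative settings and passed under 10. Many of the 16 could not turn its sign, for the reason given for Agtr1a. Where the ratios were computed anew or came from the authors, the means were -1.47 to -1.16. The call was lost without array 2 (adjusted p = 0.282) and without array 3 (adjusted p = 0.450), fits in which 0 of all probes passed. Since Akr1b7 is also made by steroid-producing cells, the markers of those cells were read beside it. Their summed normalized signal was 685 to 782 in the Fgfrl1-/- pools and 741 to 874 in the wildtype pools, and 0 of 8 passed the test. Of the 8, 4 were detected in all pools (Star, Hsd3b1, Cyp17a1 and Mc2r) and 1 in none (Cyp11a1). Lower on all 3 arrays were 3 of the 8 (37.5%), beside 19.2% of all probes. These were Cyp11a1, which no pool detected, Cyp17a1 (-0.37, -0.06 and -0.02, adjusted p = 0.538) and Mc2r. Mc2r, the receptor for the hormone that drives the adrenal cortex, had -0.21, -0.35 and -0.36 (adjusted p = 0.130). Their part in the Akr1b7 value was not tested.

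None of the other pathway genes passed the test. Among detected genes, the largest negative means after Akr1b7 were those of Gucy1a3, a subunit of the nitric oxide receptor (-0.98 ± 0.70 SD, adjusted p = 0.155), and Enpep, the aminopeptidase that shortens angiotensin II (-0.53 ± 0.19 SD, adjusted p = 0.0874). The largest positive means were those of Ctsd, the lysosomal protease cathepsin D (0.72 ± 0.33 SD, adjusted p = 0.0902), the Ren2 probe described above, and Anpep, an aminopeptidase that degrades angiotensin peptides (0.55 ± 0.34 SD, adjusted p = 0.141). Gucy1a3 was near 0 on array 1 (-0.17) and low on arrays 2 and 3 (-1.46 and -1.31). Atp6ap2, the prorenin receptor, had 0.21 ± 0.20 SD (adjusted p = 0.393). Mas1, the receptor for the shortened peptides, was detected in no pool, nor was Cyp11b2, the aldosterone synthase.

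**Figure D5:**
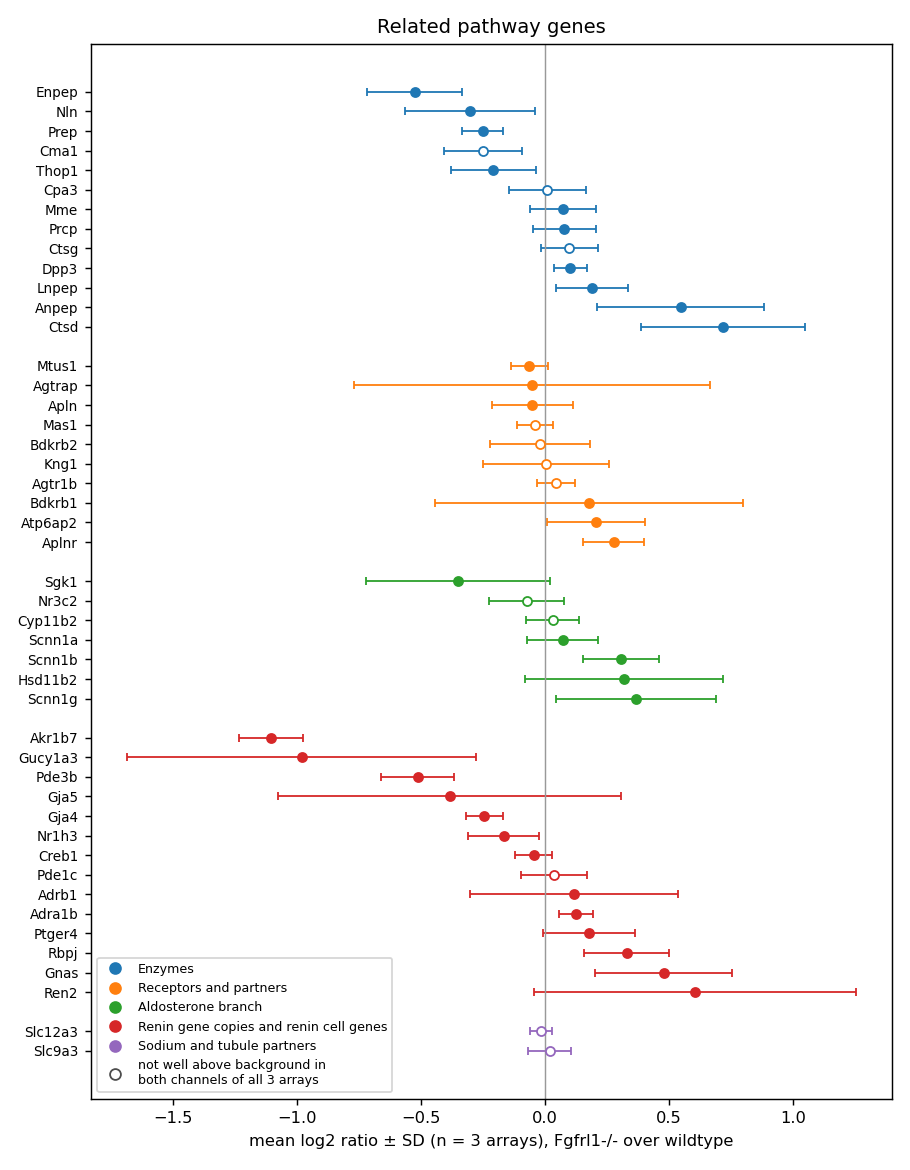
Mean log2 ratio ± SD (n = 3 arrays) of Fgfrl1-/- over wildtype for 46 of the 47 related pathway genes, in groups by role; open points were not detected in at least 1 pool. Akr1b7 has the lowest mean (-1.10) with a narrow bar.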

How the data were processed

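The arrays were read by the authors with Agilent Feature Extraction. The file of array 1 names version 9.5.3.1, those of the other arrays 10.5.1.1, and the submitters' processing notes version 10. The deposited intensity columns used here are median signals of spots, local backgrounds and processed signals, in both channels. The deposited flags mark outlier spots and spots well above background. The processed signals are background-subtracted and dye-normalized by that software. What is called the scanner software's ratios was computed from them, as green (Fgfrl1-/-) over red (wildtype). The deposited log10 ratios are those of red over green. A table of log2 ratios from the authors was deposited too. Its column medians were -0.018, 0.000 and 0.003, and its direction was read from its correlation with the scanner-derived ratios (r = 0.966, 0.895 and 0.913), whereas its background correction and normalization are not given in the sources used here. Per-sample columns left unused number 0.

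In R 4.3.3 with limma 3.58.1, median signals were corrected with normexp (offset 50) and normalized by loess within each array, with control spots at weight 0. Spots with an outlier flag were dropped (0 among the 9 probes) and spots of a probe were averaged. The log2 ratios were fitted with lmFit and eBayes against 0, 2-sided, and adjusted after Benjamini-Hochberg over 41174 probes, with a threshold of 0.05. Each array pairs 1 pool of each genotype. The p-values measure the spread between these pools and arrays, and precision is limited by having 3 arrays. The fit was tested on simulated data. Summed normalized signals are sums over a marker list after loess and Aquantile normalization. They include the offset of 50 for each probe, detected or not. No fold is given for a probe that all pools of 1 genotype lack by the detection mark.

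Gene names come from array 1's file and were joined by probe. Positions are those on mm8 in the files, and without an annotation of that build exons and UTRs were not assigned. Of the 48 pathway genes and the marker genes, 6 were matched by RefSeq accession and 2 had no probe. Named were all members, pathway genes past the test, and the 3 largest detected means in each direction, with the 3 genes most like each detected member; others are marked as chosen after their values were seen, or stand for a role in the pathway. The members and lists were chosen with earlier results of these data known. The value of 1 pathway gene is not reported here.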

Additional observations from a re-analysis of the deposited data

How the results depend on the processing

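Values were recomputed under up to 16 alternatives (13 for Agtr1a probe 2, Ace probes 2 and 3 and Ren1 probe 2, and 15 for Agt, where some settings do not hold the probe), 1 of them (a single value per slide) chosen after the data were seen. The mean foreground signals could not be used, and the slide as a random block could not be fitted. Quantile normalization leaves the ratios unchanged by construction. Keeping outlier spots, a trended and robust eBayes and the separate-channel fit also returned the same means. So did leaving out dim probes and taking 1 probe per gene, where these kept the probe. The signs of Ren1, Agtr1a probe 1, Fgfrl1 and Akr1b7 held under every alternative run, and those of the other members, whose means lay near 0, did not. The ratios of the former had 1 sign on all 3 arrays, so averages over fewer arrays, slides or probes could not turn them. Only another background correction, another normalization or another source of the ratios could. With the scanner software's ratios the mean turned for Agtr2 (-0.012), Agtr1a probe 2 (0.057) and Agt (-0.040). With median centring it turned for Agtr2 (-0.065), Agtr1a probe 2 (0.073), Ace probe 1 (0.0015), Ace probe 2 (0.070) and Ace probe 3 (0.12), and without background subtraction for Ace probe 2 (0.0077). The causes were not tested. With 1 array left out in turn, Agtr2 ranged from -0.034 to 0.20, Agtr1a probe 1 from -0.34 to -0.26, Ace probe 2 from -0.10 to 0.033, Ace probe 3 from -0.058 to 0.044, Ren1 probe 1 from 0.27 to 0.92 and Fgfrl1 from -1.67 to -1.36.

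Fgfrl1 no longer passed the test with an offset of 0 (-1.68), the scanner software's ratios (-1.83) or a single value per slide (-1.44), nor without array 2 or array 3. In each of these fits 0 of all probes passed. The counts over all probes moved more. Against 164 lower and 119 higher in the limma fit, an offset of 0, the scanner software's ratios and a single value per slide each gave 0 and 0, with 4852, 3676 and 3450 probes at an unadjusted p under 0.05 (6541 in the limma fit). Median centring gave 91 lower and 2 higher, leaving out dim probes (26248 tested) 46 and 14, and the log2 ratios of the authors 32 lower and 4 higher. No background subtraction gave 72 higher, and the separate-channel fit without the replicate block, with an intraspot correlation of 0.452, gave 225 higher. Leaving out 1 array gave 0 to 4172 lower and 0 to 3494 higher. Among the pathway genes, the 1 lower call became 0 with an offset of 0, with the scanner software's ratios, with the authors' table and with a single value per slide, and leaving out 1 array gave 0 to 9 lower and 0 to 11 higher. With 1 array left out, 12733 (without array 1), 3712 (without array 2) and 3141 (without array 3) probes had an unadjusted p under 0.05. Agt, Ace probes 2 and 3 and Ren1 probe 2 lie at the limit of detection, so the size of their ratios is not determined.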
